A study of Mus musculus with 30 samples.

Results

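The dorsal pancreas of mouse embryos at embryonic day 16.5 (e16.5) was compared with that at e12.5, on 12 of the 30 arrays of a daily series from e12.5 to e16.5. The 12 arrays are those whose titles give either stage, 6 for each. Both stages were NMRI embryos with no treatment or engineered allele named in the labels. Only the dorsal bud was dissected, pancreata of a litter were pooled, and the sources used here give no number of litters or embryos. RNA of 1 pool per stage was labelled with biotin in 2 reactions, and every reaction went onto a set of 3 Affymetrix MG-U74v2 arrays, chips A, B and C, which gives 2 arrays per stage on each chip. The arrays of a stage therefore repeat the labelling and not the animals. Their spread is technical, and stage and pool cannot be told apart.

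At the earlier stage the bud is a branching epithelium of progenitor cells inside a thick mesenchyme, with a first wave of glucagon cells. Over the following days its tips become acini, the clusters of cells that make digestive enzymes, its trunks become ducts, and cells that leave the trunks become islet cells. Acinar cells pack zymogens, the inactive forms of proteases, into granules, and depend on a large endoplasmic reticulum (ER) that folds and exports these proteins. The transcription factor complex PTF1, which contains Ptf1a, binds the promoters of acinar enzyme genes, and Bhlha15 (Mist1) builds up the secretory apparatus.

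Values are deposited log2 expression values, so a difference of 1 is a 2-fold change. The medians of the end-stage arrays were 3.99 to 5.75, lowest on chip C and highest on chip A. The correlation of the 2 reactions was 0.996 to 0.998. The files carry no detection calls, so a value under the median of its chip is described here as dim. Where 4 values of a gene are given, the first pair are the e12.5 arrays and the second pair the e16.5 arrays; ± is the standard error of the difference in limma.

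Of 36701 probe sets, 527 were higher and 1111 lower at e16.5, at an adjusted p under 0.05 in limma and at least 2-fold. These are 1.44% and 3.03% of the probe sets tested. Every probe set that moved 2-fold also passed the p threshold, the highest adjusted p among them being 0.00135, so the fold minimum alone sets these counts; by adjusted p alone 9687 were higher and 8594 lower. A list said to have no member called thus has none at 2-fold. Chip A held 336 higher and 398 lower, chip B 132 and 589, and chip C 59 and 124. With cyclic loess in place of the deposited scaling, chip A held 390 higher and 300 lower, which turns its balance round. With 1 probe set for each of 15964 genes, 352 genes (2.2%) were called higher and 678 (4.25%) lower.

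**Figure D1:**
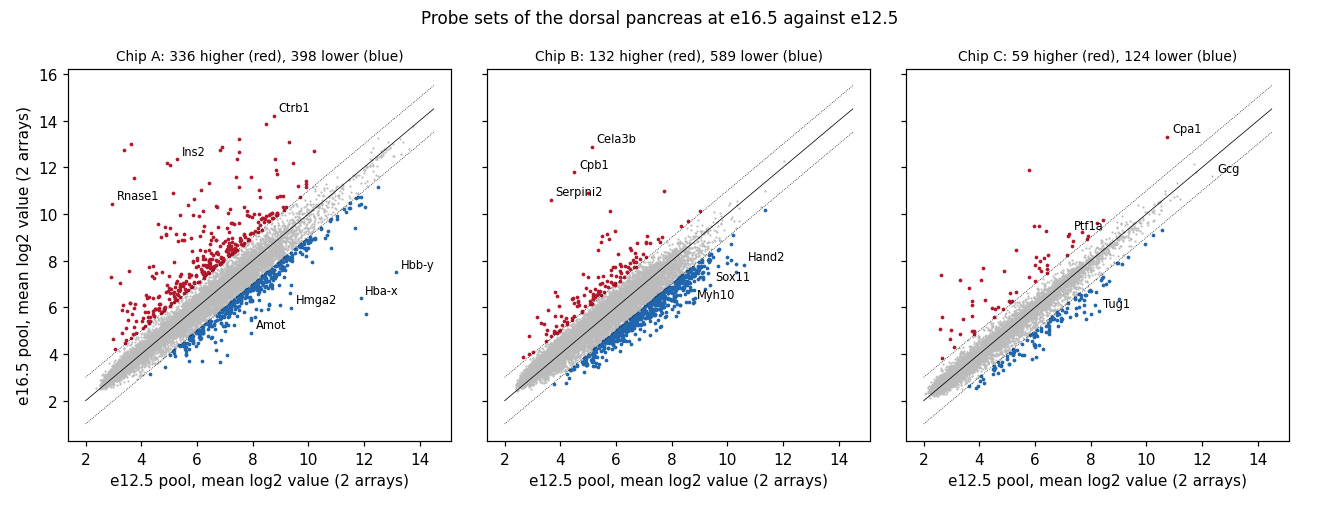
Mean log2 value of the e16.5 pool (vertical) against the e12.5 pool (horizontal) for every probe set of chips A, B and C, each point a mean of 2 arrays. Red and blue points were called higher and lower at e16.5, the solid line marks equal values and the dotted lines 2-fold. The red points reach farther from the line than the blue ones, while the blue points are more numerous on each chip.

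Falls were more numerous and rises were larger. The median size was 2.74-fold over the genes called higher and 2.35-fold over those called lower. At least 4-fold changes were found in 95 rising and 45 falling genes, and at least 16-fold changes in 24 rising and 2 falling genes. Of the risers, 235 were above the chip median on all 4 arrays and 117 were dim on at least 1 e12.5 array; of the fallers, 535 were above it on all 4 and 143 were dim on at least 1 e16.5 array. A dim value bounds a level poorly, so the folds of those genes are less certain. Genes named below that were dim on both e12.5 arrays include Serpini2, Sycn, Zg16, Pdia2, Gnmt, Nucb2, Insig1 and S100a9. Those dim on both e16.5 arrays include Amot, Igf2bp1, Cdh2, Wnt5a, Lama1, Gdf11, Mycn and Sfpq. RNA came from whole dorsal pancreata, and fewer cells of a type and less RNA per cell cannot be told apart in these values.

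Genes of acinar digestive enzymes rose together. Of 17 measured, 16 were called higher and none lower, with a median change of 4.92, against 0.02 over all genes. Cela3b, a pancreatic elastase, read 4.97 and 5.27 at e12.5 and 12.88 and 12.86 at e16.5. Both later arrays lie far above both earlier ones, 215-fold on average (7.75 ± 0.10, limma adjusted p = 7.15e-17). Rnase1, the secreted pancreatic ribonuclease, read 2.95 and 2.97 at e12.5 and 10.52 and 10.33 at e16.5, 177-fold higher (7.47 ± 0.09, limma adjusted p = 1.22e-13). Carboxypeptidase B1 (Cpb1) read 4.43 and 4.58 at e12.5 and 11.80 and 11.77 at e16.5, a change of 7.28 ± 0.07. Their e12.5 values were dim or, on 1 array of Cela3b, at the array median, so the folds of these 3 rest on a poorly measured start. Prss2, an anionic trypsinogen, rose likewise from dim values, reading 5.0 and 5.03 at e12.5 and 12.13 and 12.06 at e16.5.

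Other enzyme genes were already well above the chip median at e12.5 and rose from there. Ctrb1, chymotrypsinogen B, read 8.72 and 8.77 at e12.5 and 14.23 and 14.17 at e16.5, 43.8-fold higher (5.45 ± 0.06, limma adjusted p = 3.78e-14). Clps, the colipase that anchors lipase to fat droplets, read 8.49 and 8.46 at e12.5 and 13.85 and 13.84 at e16.5, and Cel, carboxyl ester lipase, read 7.53 and 7.51 at e12.5 and 13.22 and 13.24 at e16.5. All of these are at least 16-fold changes. Cpa1, carboxypeptidase A1, which also marks the multipotent tip cells of the early bud, read 10.73 and 10.77 at e12.5 and 13.33 and 13.30 at e16.5, a smaller rise of 2.56 ± 0.07. The elastases Cela1 (4.92 ± 0.06) and Cela2a (4.89 ± 0.06), the chymotrypsin-like Ctrl (4.19 ± 0.08) and the lipase relative Pnliprp1 (5.95 ± 0.09) rose by more than Cpa1. Trypsinogens, amylases and elastases are families of close relatives, and cross-hybridisation between relatives was not tested.

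Of 28 genes of zymogen granules and other acinar products, 20 were called higher and none lower (median 2.89). Serpini2, a pancreatic serpin, read 3.70 and 3.61 at e12.5 and 10.59 and 10.60 at e16.5, a change of 6.94 ± 0.08. Sycn, syncollin of the granule membrane, read 5.27 and 4.99 at e12.5 and 10.87 and 10.92 at e16.5, a change of 5.77 ± 0.08, and Pdia2, the disulfide isomerase found mostly in pancreas, changed by 5.91 ± 0.07. Cckar, the receptor through which cholecystokinin triggers acinar secretion, was above the chip median at both stages and read 6.23 and 6.23 at e12.5 and 10.21 and 10.01 at e16.5. Nupr1, a small stress-response chromatin protein, read 5.90 and 5.89 at e12.5 and 10.61 and 10.66 at e16.5, and Kctd14, with a potassium channel tetramerisation domain, 5.65 and 5.95 at e12.5 and 10.19 and 10.05 at e16.5; the chip C probe set of Kctd14 changed by 0.19. Among 8 acinar marker genes, all 8 were called higher. Of these, 6 were above the chip median on both e12.5 arrays and 8 on both e16.5 arrays. Over all genes, 9844 of 15964 were above it on all 4 arrays, so these counts do not test the tissue label.

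The transcription factors of the acinar programme moved both ways, with 4 of 14 called higher and 3 lower. Bhlha15 read 5.73 and 5.73 at e12.5 and 8.95 and 8.89 at e16.5, 9.13-fold higher (3.19 ± 0.08, limma adjusted p = 2.58e-13). Ptf1a read 7.10 and 7.33 at e12.5 and 9.15 and 9.17 at e16.5, a change of 1.94 ± 0.09. Xbp1, the factor that enlarges the ER, changed by 1.37 ± 0.09, and Foxa3 by 1.17 ± 0.06. The 3 that fell were Carm1, an arginine methyltransferase that acts as a coactivator (-1.45 ± 0.07), Tcf12, a partner of basic helix-loop-helix factors (-1.30 ± 0.06), and Creb3l2 (-1.11 ± 0.07). With all probe sets of a gene averaged, 1 of the list in place of 3 was lower. Rbpjl, the adult partner of Ptf1a, stayed dim on all arrays, from 3.66 to 3.95, and Nr5a2, which sustains acinar genes, changed by 0.82 and was not called.

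Promoters of enzyme genes are shown because the PTF1 motif has been described in them. The search took an E-box, CANNTG, followed within 20 bases by TTTCCC, on either strand, in RefSeq promoters (GRCm38.p6) that run from 250 bases before to 50 bases after a gene's start. It matched 4 of the 16 promoters of 15 measured enzyme genes, 25%, and 810 of 32851 promoters in all, 2.47%. Capitals mark the match, gap included, read 5′ to 3′ along the gene with 30 bases on either side. The Cela1 window is chr15:100687984-100688059 on the minus strand, the Ctrb1 window chr8:111691170-111691245 on the minus strand, and the Cel window chr2:28563433-28563519 on the minus strand.
Cela1: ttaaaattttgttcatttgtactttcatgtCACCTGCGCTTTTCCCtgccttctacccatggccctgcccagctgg
Ctrb1: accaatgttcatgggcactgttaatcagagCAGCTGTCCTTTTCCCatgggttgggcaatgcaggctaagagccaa
Cel: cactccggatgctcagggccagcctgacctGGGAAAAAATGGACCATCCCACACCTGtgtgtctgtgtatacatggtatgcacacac
The match lies 109 to 94 bases before the start in Cela1, 205 to 190 bases before the start in Ctrb1 and 86 to 60 bases before the start in Cel, where it stands on the opposite strand. Cpa1 held the fourth match, and the motif was in 9 of 369 promoters of the genes called higher (2.44%). A match describes letters and does not show that the factor binds.

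Many genes of protein entry into the ER and of folding there also rose. Of 40 genes of ER folding and the stress response, 15 were called higher and none lower (median 0.58). Ero1b, the oxidase that restores disulfide isomerases and is abundant in pancreas, read 4.80 and 5.0 at e12.5 and 9.20 and 9.06 at e16.5, 18.8-fold higher (4.23 ± 0.08, limma adjusted p = 6.02e-12). Its e12.5 values were dim, and its probe sets on chips B and C were dim throughout and not called. Edem2, which marks misfolded glycoproteins for degradation, read 7.21 and 7.01 at e12.5 and 9.98 and 10.09 at e16.5, a change of 2.92 ± 0.07. Herpud1, part of the same degradation route, changed by 2.69 ± 0.06 and the Hspa5 cochaperone Dnajc3 by 2.38 ± 0.06. Fkbp11, a prolyl isomerase of secretory cells, read 6.04 and 6.26 at e12.5 and 10.97 and 11.06 at e16.5 and stands with the granule list.

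The general ER chaperones moved less. Hspa5 (BiP), the central Hsp70 of the ER, read 9.87 and 10.01 at e12.5 and 10.49 and 10.36 at e16.5, a change of 0.48 ± 0.07 that fell short of 2-fold, and calnexin (Canx) changed by 0.12. Ddit3, the death-linked factor of the stress response, changed by -0.05 (a gene named after its value was seen). Of 30 genes of the translocon, signal peptidase and glycosylation, 10 were called higher and none lower (median 0.88), and 26 changes were above 0. Tram1, which helps chains enter the membrane, read 8.83 and 8.89 at e12.5 and 10.79 and 10.67 at e16.5, a change of 1.87 ± 0.08. The translocon parts Ssr2 (1.47 ± 0.06) and Sec61b (1.35 ± 0.06) and the oligosaccharyltransferase subunit Stt3a (1.28 ± 0.08) also rose. In the coat and Golgi list 6 of 40 were called higher and none lower. These included the cargo receptor Tmed3 (2.32 ± 0.07), the KDEL receptor Kdelr3 (1.60 ± 0.06) and the calcium-binding Nucb2, which read 3.38 and 3.72 at e12.5 and 7.68 and 7.40 at e16.5.

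Windows of 3 of these promoters are shown because ER chaperone genes are known to share the ER stress element, at which NF-Y binds CCAAT and ATF6 or XBP1 bind CCACG. The search took CCAAT, any 9 bases and CCACG, on either strand. It was found in 39 of 32851 promoters, 0.119%, and in 9 of the 42 promoters of 35 measured genes of ER folding, 21.4%. The Ero1b window is chr13:12565652-12565730 on the plus strand, the Dnajc3 window chr14:118937797-118937875 on the plus strand and the Creld2 window chr15:88819490-88819568 on the plus strand, all GRCm38.p6.
Ero1b: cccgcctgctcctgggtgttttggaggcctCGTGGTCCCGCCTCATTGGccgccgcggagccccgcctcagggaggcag
Dnajc3: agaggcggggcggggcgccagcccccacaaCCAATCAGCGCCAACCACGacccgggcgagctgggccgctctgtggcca
Creld2: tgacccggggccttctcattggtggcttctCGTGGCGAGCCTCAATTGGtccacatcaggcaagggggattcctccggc
Capitals mark the match, which lies 201 to 183 bases before the start in Ero1b, 105 to 87 bases before the start in Dnajc3 and 126 to 108 bases before the start in Creld2. The element was in 4 of 369 promoters of genes called higher, the 3 shown and Derl3, and in 0 of 742 promoters of genes called lower. The other 5 ER folding genes with the element, Hspa5, Hsp90b1, Pdia6, Calr (dim throughout) and Canx, changed by 0.12 to 0.93 and were not called.

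Some amino acid enzymes were among the risers. Of 35 genes of amino acid metabolism and tRNA charging, 6 were called higher and none lower. Gnmt, which disposes of surplus methionine, read 4.95 and 4.85 at e12.5 and 9.13 and 9.04 at e16.5, a change of 4.19 ± 0.08. Cbs, the first enzyme of transsulfuration, read 5.54 and 5.45 at e12.5 and 9.02 and 9.05 at e16.5, a change of 3.54 ± 0.07, and asparagine synthetase (Asns) changed by 2.47 ± 0.09. Gatm, the first enzyme of creatine synthesis, read 6.80 and 6.89 at e12.5 and 8.62 and 8.64 at e16.5, and Bcat2 and Lars were the other 2 called. Mt1, a metallothionein that binds zinc and copper, read 8.76 and 8.83 at e12.5 and 12.32 and 12.41 at e16.5. Its relative Mt2 read 9.47 and 9.44 at e12.5 and 12.19 and 12.15 at e16.5 (both named after their values were seen). Insig1, a brake on sterol synthesis, changed by 2.62 ± 0.08, and was the single member called of 20 in the cholesterol list. In that list 2 rose without e12.5 replicate 2, without e16.5 replicate 2, with repeated quantile normalization or median centring, and by a line or a quadratic, and 0 among the brighter probe sets. Of 277 solute carriers, 9 rose (3.25%) and 4 fell (1.44%), against 2.2% and 4.25% over all genes. They were led by Slc41a1, a magnesium carrier (2.11 ± 0.10), the amino acid carrier Slc38a3 (1.90 ± 0.08) and the iron exporter Slc40a1, which fell by 1.71.

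**Figure D2:**
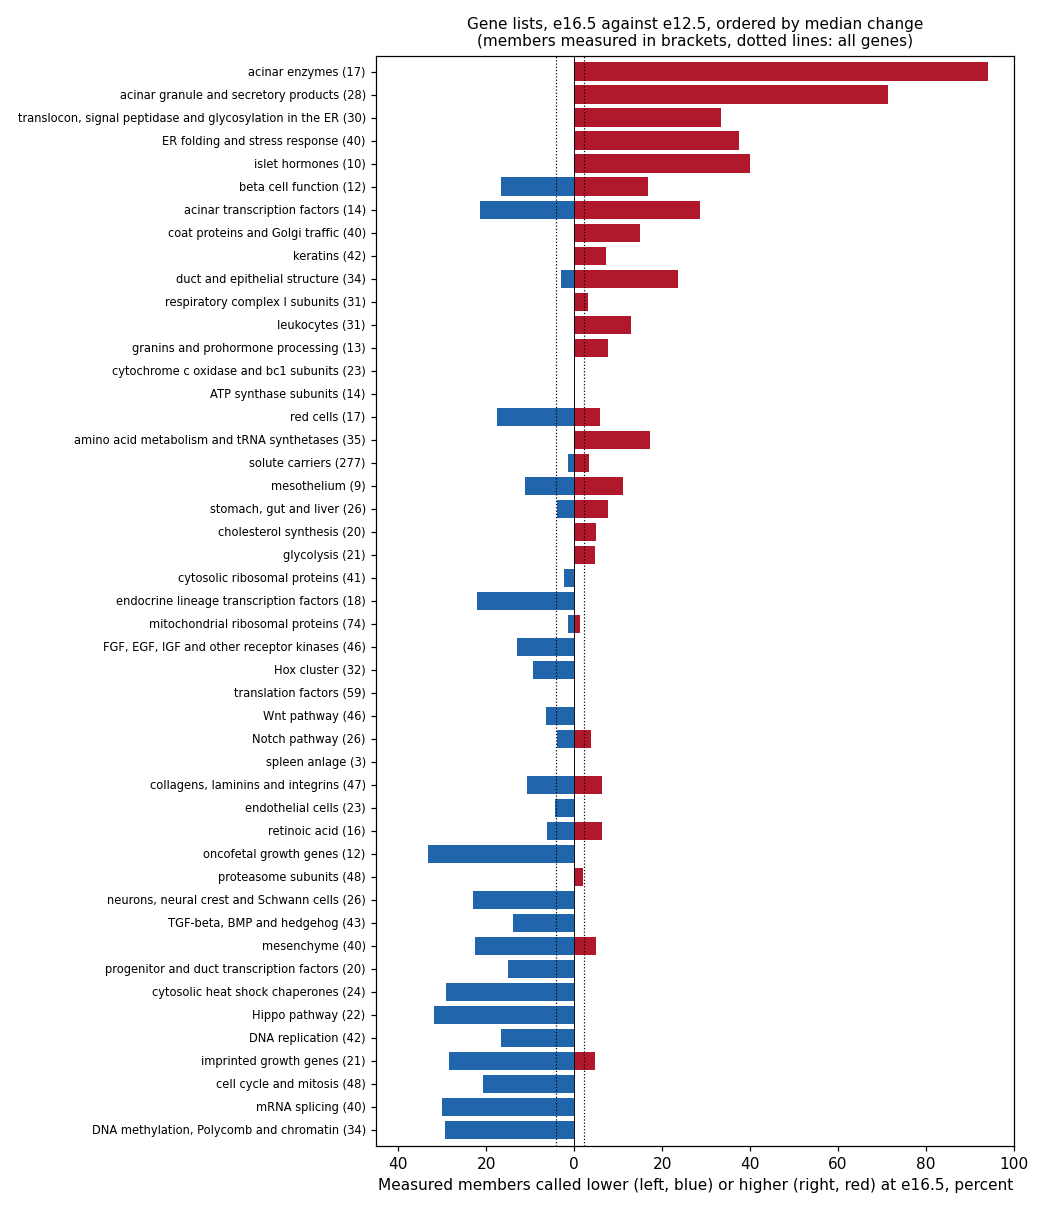
Share of the measured members of each gene list called higher (right, red) or lower (left, blue) at e16.5, in percent, with lists ordered by their median change and the number measured in brackets. Dotted lines mark the shares over all genes, 2.2% higher and 4.25% lower; the acinar enzyme and granule lists hold the highest shares of risers, and the splicing, chromatin, Hippo and oncofetal lists the highest shares of fallers.

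Insulin, amylin and somatostatin genes rose, while glucagon did not. Ins2, insulin, read 5.26 and 5.31 at e12.5 and 12.39 and 12.29 at e16.5, 134-fold higher (7.06 ± 0.06, limma adjusted p = 1.27e-14). The name of this probe set carries the suffix the array design gives to sets shared by a gene family, so Ins1 and Ins2 cannot be told apart. Both e12.5 values were dim, so the fold rests on a poorly measured start. The other Ins2 probe set, above the chip A median on all 4 arrays, changed by 0.76 and was not called. Iapp, amylin of the beta cell granule, read 6.02 and 6.13 at e12.5 and 9.93 and 9.85 at e16.5, a change of 3.81 ± 0.06. Sst, somatostatin of delta cells, read 5.93 and 5.65 at e12.5 and 8.96 and 8.97 at e16.5, a change of 3.17 ± 0.10, and Npy changed by 1.21 ± 0.08. Gcg, glucagon, the hormone of the early alpha cells, read 12.36 and 12.38 at e12.5 and 11.69 and 11.55 at e16.5 on chip C, where it changed by -0.75 ± 0.07 and was not called. Its probe set on chip A fell by 1.16 and was called, and with quantile normalization repeated the chip C value was -1.56 and was called too. Of 10 islet hormones measured, 4 were higher and none lower.

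Genes of endocrine cell formation fell or were not called between the end stages. Of 18 transcription factors of the endocrine lineage, 4 were lower and none higher. In that list 9 changes were above 0 and 9 below (median -0.04). Sox11 read 9.42 and 9.36 at e12.5 and 6.98 and 6.92 at e16.5, a change of -2.44 ± 0.07, and fell on 4 of its 5 probe sets. Sox4 changed by -1.37 ± 0.06, Rfx3, which builds cilia, by -1.30 ± 0.09 and Runx1t1 by -1.04 ± 0.11, and the last was short of 2-fold after cyclic loess (-0.98) and without e16.5 replicate 2 (-0.86). Neurog3, the factor that starts endocrine differentiation, read 6.36 and 6.62 at e12.5 and 7.11 and 7.02 at e16.5. It changed by 0.58 ± 0.09 and was not called, but its pool means in between were 7.76, 7.95 and 7.43. A contrast of the ends does not show such a middle peak. The other endocrine progenitor markers Neurod1 (0.18), Insm1 (0.18) and Pax4 (0.12) were not called, the first and second with all end arrays dim. Nkx2-2, an islet factor, went from a mean of 7.61 through 8.33 at e14.5 to 6.65 at e16.5. Of 13 granins and prohormone-processing genes, Scg2 alone was called (1.98 ± 0.09); 3 were with cyclic loess or without e16.5 replicate 2, 2 with repeated quantile normalization or without e12.5 replicate 1, and 0 among the brighter probe sets. The beta cell list had 2 higher, Ero1b and the granule protein Sytl4, and 2 lower, the collectrin gene Cltrn (-1.26 ± 0.08) and Nnat. The beta cell marker Slc2a2 (-0.70 ± 0.07, all end arrays dim) and the delta cell marker Hhex (-0.64 ± 0.07) went down by less than 2-fold.

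Markers of ducts and simple epithelium rose in part. Of 34 duct and epithelial genes, 8 were called higher and 1 lower, Cldn6 (-1.21 ± 0.08), which quantile normalization or cyclic loess took under 2-fold; 5 were higher with all probe sets of a gene averaged. Clu, the secreted chaperone clusterin, read 6.76 and 6.66 at e12.5 and 10.27 and 10.35 at e16.5, a change of 3.60 ± 0.06. Muc1, the apical mucin, read 7.61 and 7.80 at e12.5 and 10.29 and 10.30 at e16.5, a change of 2.59 ± 0.07. Krt18, Krt19 and Krt8 changed by 2.06 ± 0.06, 1.33 ± 0.07 and 1.19 ± 0.07, and were the 3 called of 42 keratin genes. Vil1, villin of microvilli, changed by 2.36 ± 0.14, with 3 of its 4 arrays dim. The shared epithelial proteins Cdh1 (0.39) and Epcam (-0.16) and the duct factor Sox9 (-0.76) did not reach 2-fold. Of 20 progenitor and duct transcription factors, none rose and 3 fell, the proto-oncogene Mycn (-1.62 ± 0.10) and the inhibitors of differentiation Id3 (-1.53 ± 0.06) and Id1 (-1.21 ± 0.07). Pdx1, the factor without which no pancreas forms, read 5.64 and 5.67 at e12.5 and 5.49 and 5.51 at e16.5 with a mean of 6.21 at e14.5.

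The farthest falls were those of embryonic globins. Hbb-y read 13.14 and 13.17 at e12.5 and 7.44 and 7.58 at e16.5, 50.1-fold lower (-5.65 ± 0.06, limma adjusted p = 5.68e-14), and Hba-x read 11.88 and 11.86 at e12.5 and 6.36 and 6.41 at e16.5, a change of -5.48 ± 0.07. Both are made by the primitive red cells of the yolk sac. The third embryonic globin, Hbb-bh1, changed by -1.39 ± 0.07. The adult globin Hba-a1 read 12.34 and 12.33 at e12.5 and 12.84 and 12.77 at e16.5 and did not reach 2-fold, and Alas2, which starts haem synthesis in red cells, changed by 1.46 ± 0.06. Summed over the 5 red cell markers measured, the log2 level went from 14.18 on both e12.5 arrays to 13.02 and 12.95 at e16.5. That sum includes the embryonic globins. Of 17 red cell genes measured, 1 was higher (5.88%) and 3 lower (17.6%), against 2.2% and 4.25% over all genes. In that list 13 changes were above 0 (median 0.15), and 2 genes were higher with cyclic loess, a line or a quadratic.

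Hmga2 and Igf2bp1, growth genes of the embryo that are silent in most adult tissue, were among the larger falls. Hmga2, a chromatin protein, read 9.31 and 9.46 at e12.5 and 5.81 and 6.15 at e16.5, 10.6-fold lower (-3.40 ± 0.10, limma adjusted p = 2.27e-10). Igf2bp1, which binds the mRNA of growth genes, read 8.02 and 8.14 at e12.5 and 5.46 and 5.72 at e16.5, a change of -2.49 ± 0.09. With Mycn and Dlk1 these made 4 of 12 oncofetal genes lower and none higher; 2 were lower with all probe sets of a gene averaged. Igf2bp3 (0.66) and Lin28a (-0.01) were not called. Of 21 imprinted growth genes, 6 fell and 1 rose. Grb10, an inhibitor of insulin receptor signalling, read 9.34 and 9.31 at e12.5 and 6.59 and 6.68 at e16.5, a change of -2.69 ± 0.06; a further chip A probe set also fell 2-fold, and those on chip C and at a dim level on chip A did not. Peg3 (-1.27 ± 0.06), Nnat (-1.28 ± 0.07) and Dlk1 (-1.14 ± 0.07) also fell, Dlk1 by less than 2-fold after cyclic loess, and Igf2 went from 13.32 to 12.58.

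Some mesenchymal genes fell at least 2-fold, and a few rose. Of 40 mesenchymal genes, 9 were lower and 2 higher (median -0.34). Hand2, a transcription factor of the gut mesenchyme, read 10.61 and 10.55 at e12.5 and 7.90 and 7.73 at e16.5, 6.79-fold lower (-2.76 ± 0.08, limma adjusted p = 7.78e-13). Tcf21, a factor of visceral mesenchyme, changed by -2.42 ± 0.08, N-cadherin (Cdh2) by -2.04 ± 0.10 and Snai2 by -1.79 ± 0.07. The collagen gene Col1a1 read 11.03 and 11.15 at e12.5 and 10.66 and 10.74 at e16.5, a lower value on both later arrays that was short of 2-fold (-0.39 ± 0.07, limma adjusted p = 0.000491). Col3a1 changed by -0.15 (0.05 after cyclic loess), and by -0.78 and -0.32 on its other 2 probe sets, while decorin (Dcn) and periostin (Postn) rose by 1.26 and 1.70. In the list of collagens, laminins and integrins, which also holds other matrix proteins such as Tgfbi, 5 of 47 fell and 3 rose. With probe sets averaged 3 fell. The changes ran from Tgfbi (-2.49 ± 0.07), Itga8 (-2.30 ± 0.08) and Lama1 (-1.51 ± 0.06) to Itga6, a laminin receptor of epithelium (1.76 ± 0.15).

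Several signalling components of epithelium and mesenchyme were lower at e16.5. In the Wnt list 3 of 46 fell and none rose: the antagonist Sfrp1, which read 9.25 and 9.17 at e12.5 and 6.67 and 6.87 at e16.5, the ligand Wnt5a (-1.82 ± 0.10) and the receptor Fzd2 (-1.42 ± 0.07). In the list of TGF-beta, BMP and hedgehog 6 of 43 fell, among them the receptors Tgfbr1 (-1.92 ± 0.07) and Bmpr1a (-1.17 ± 0.08), the ligand Gdf11 (-1.52 ± 0.08) and the effector Smad5 (-1.41 ± 0.08); 2 fell with probe sets averaged. In the receptor kinase list, which also holds ligands and binding proteins, 6 of 46 fell and none rose, and 3 fell with probe sets averaged. Among the fallers were Fgfr2, the receptor for mesenchymal FGF10 (-1.38 ± 0.07), the binding proteins Igfbp2 (-1.70 ± 0.09) and Igfbp3 (-1.5 ± 0.07), and the ligand Pdgfc (-1.66 ± 0.08). Rdh10, which makes retinal for retinoic acid, read 10.39 and 10.25 at e12.5 and 7.84 and 7.87 at e16.5, while Aldh1a1, which can oxidise it, read 5.75 and 5.29 at e12.5 and 8.91 and 8.88 at e16.5. In the Notch list 1 of 26 rose, the gamma-secretase gene Psen2 (1.42 ± 0.09), and 1 fell, Dlk1. The shares of fallers were 6.52% in the Wnt list and 3.85% in the Notch list, against 4.25% over all genes.

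Of 22 genes of the Hippo pathway, which restrains growth through the coactivators Yap1 and Wwtr1, 7 fell and none rose. Amot, which holds Yap1 in the cytoplasm, read 7.89 and 8.02 at e12.5 and 5.01 and 4.82 at e16.5, 8.21-fold lower (-3.04 ± 0.09, limma adjusted p = 2.40e-10). The kinases Lats2 (-1.42 ± 0.07) and Taok1 (-1.33 ± 0.06) and the Amot relative Amotl2 (-1.33 ± 0.08) fell by less. Yap1 (-1.05 ± 0.07) and Wwtr1 (-1.02 ± 0.09) stood just past 2-fold. With cyclic loess 4 of the 22 were lower, and with the probe sets of a gene averaged 2. In the neural list 6 of 26 fell and none rose, and 3 fell with probe sets averaged. Among the fallers were Gap43 of growing axons (-1.89 ± 0.06), the neurofilament Nefm (-1.80 ± 0.13), the endothelin receptor Ednrb (-1.70 ± 0.09) and Ncam1 (-1.55 ± 0.09). In that list 10 changes were above 0 and 16 below (median -0.19). The 2 neural markers measured, Sox10 (0.28) and Tubb3 (-0.29), were not called. Of 32 Hox genes, Hoxa5, Hoxb2 and Hoxa3 fell by 1.56, 1.23 and 1.05; Hoxb2 was -0.99 after repeated quantile normalization, and Hoxa3 was -0.88 without e16.5 replicate 1.

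Other large falls had no list of their own. Myh10, a non-muscle myosin, read 8.81 and 8.70 at e12.5 and 6.17 and 6.21 at e16.5, and Gpc6, a glypican that carries heparan sulfate, read 8.25 and 8.07 at e12.5 and 5.64 and 5.64 at e16.5. Slitrk5, a membrane protein of neurons and other cells, read 8.82 and 8.80 at e12.5 and 6.20 and 6.29 at e16.5. All 4 arrays of each of these 3 genes lay above the chip median. Nr2f1, a nuclear receptor, read 6.23 and 6.15 at e12.5 and 3.39 and 4.04 at e16.5, with its later arrays dim and well apart. Tug1, a long noncoding RNA, read 8.26 and 8.30 at e12.5 and 5.85 and 5.80 at e16.5 on chip C, and its other 3 probe sets were not called. The other 2 probe sets of Slitrk5 also fell (-1.14 and -1.47), while the second one of Myh10 changed by -0.20.

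Several proliferation genes fell, and the medians of their lists fell mostly in the last step. Of 48 genes of the cell cycle and mitosis, 10 were lower and none higher, and of 42 DNA replication genes, 7 were lower and none higher. The median of the cell cycle list against e12.5 was -0.07 at e13.5, -0.05 at e14.5, -0.07 at e15.5 and -0.64 at e16.5. That of the replication list was -0.06, -0.01, -0.14 and -0.59. In both, most of the difference appeared between the last 2 pools. Mcm7, part of the helicase that opens DNA for copying, read 9.35 and 9.31 at e12.5 and 7.99 and 8.12 at e16.5, with means of 9.28, 9.40 and 9.11 in between. Mcm4 (-1.44 ± 0.08), the clamp Pcna (-1.27 ± 0.11), the reductase subunit Rrm1 (-1.17 ± 0.07), the spindle checkpoint kinases Bub1b (-1.36 ± 0.10) and Bub1 (-1.30 ± 0.08), the kinetochore protein Cenpf (-1.35 ± 0.07) and the kinesin Kif2c (-1.25 ± 0.09) also fell. By e15.5 Cenpf and Kif2c had covered 54.9% and 52.0% of their falls, and Mcm4, Pcna, Rrm1, Bub1b and Bub1 31.2% to 35.6%. Mki67, the usual proliferation marker, changed by -0.43 and was not called. With cyclic loess the counts were 5 and 4, with repeated quantile normalization the cell cycle count was 6, and a line over the 5 pool means called 6 and 3. With all probe sets of a gene averaged the cell cycle count was 6.

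Promoters of 2 mitotic genes are shown because many such genes carry the cell cycle homology region (CHR), the site of the DREAM and MuvB complexes. The search took TTTGAA or TTCGAA on either strand in the same promoters. It matched 25 of 43 promoters of 37 measured cell cycle genes (58.1%), 8 of the 10 promoters of those called lower, 7 of 43 promoters of replication genes (16.3%), and 19.2% of all 32851. The Bub1b window is chr2:118597993-118598058 on the plus strand and the Kif2c window chr4:117178840-117178905 on the minus strand, GRCm38.p6, with the match in capitals; in Kif2c it stands on the opposite strand.
Bub1b: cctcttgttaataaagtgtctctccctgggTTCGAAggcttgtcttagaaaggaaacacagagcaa
Kif2c: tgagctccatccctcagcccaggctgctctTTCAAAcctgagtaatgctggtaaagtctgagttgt
The match lies 188 to 183 bases before the start in Bub1b, which has another match outside the window. In Kif2c it lies 103 to 98 bases before the start used. That start lies inside the gene, whose coordinates are chr4:117159633-117182624. In the genes called lower as a whole the share was 18.9%, and in those called higher 11.1%. So short a motif is common, as the share over all promoters shows. No window printed holds a match to another of the 3 motifs searched.

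Falls were frequent among RNA processing and chromatin genes. Of 40 splicing genes 12 were lower and none higher (median -0.77), and of 34 genes of DNA methylation, Polycomb and chromatin remodelling 10 were lower and none higher (median -0.84). With all probe sets of a gene averaged the counts were 5 and 2. Ezh2, the Polycomb methyltransferase, read 8.14 and 8.26 at e12.5 and 6.76 and 6.75 at e16.5, a change of -1.44 ± 0.07. Dnmt1, which copies DNA methylation after replication, read 9.11 and 8.97 at e12.5 and 7.62 and 7.61 at e16.5, a change of -1.43 ± 0.07, while a further probe set of it changed by 0.16. The remodeller Smarca5 changed by -1.49 ± 0.09, and of its other 2 probe sets 1 was called. Sfpq, a paraspeckle and splicing protein, read 7.26 and 7.42 at e12.5 and 5.14 and 5.37 at e16.5, but none of its other 9 probe sets was called, most of them dim. Hnrnph1 (-1.42 ± 0.08), Hnrnpd (-1.27 ± 0.07) and the Sm protein Snrpf (-1.25 ± 0.08) fell by less. The median of the splicing list was -0.12 at e14.5 and -0.36 at e15.5.

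Cytosolic heat shock chaperones had fallers and no risers. Of 24 measured, 7 were lower and none higher (median -0.54); 3 were lower with probe sets averaged. Hsph1, an Hsp110 exchange factor, read 8.59 and 8.72 at e12.5 and 6.97 and 7.06 at e16.5, a change of -1.64 ± 0.07. Its relative Hspa4 changed by -1.44 ± 0.06, the Hsp70 cochaperone Dnaja1 by -1.22 ± 0.06 and the Hsp70 to Hsp90 adaptor Stip1 by -1.21 ± 0.07.

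**Figure D3:**
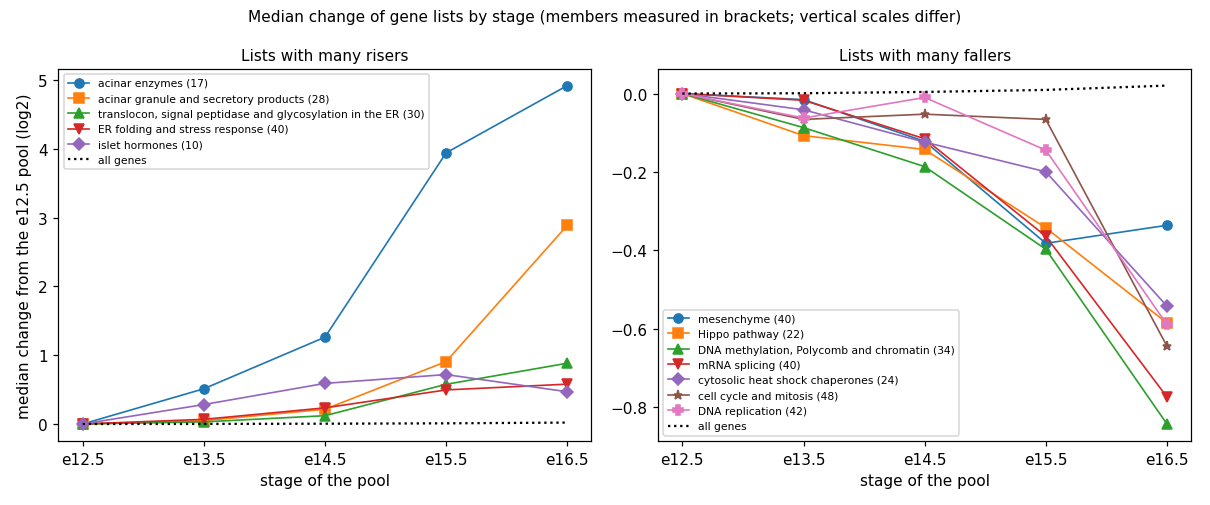
Median change from the e12.5 pool of the members of 12 gene lists at each later stage (log2, left panel risers, right panel fallers; dotted line, all genes). The acinar enzyme list stood at 1.26 at e14.5 and 3.94 at e15.5, while the cell cycle list stood at -0.07 at e15.5 and was -0.64 at e16.5.

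Several lists of basic cell machinery stayed near the shares over all genes. Of 41 cytosolic ribosomal proteins Rpl22 alone was called (-1.0 ± 0.07), and 3 other scalings took it under 2-fold (-0.92, -0.98 and -0.85), as did leaving out e12.5 replicate 2 (-0.96) or e16.5 replicate 1 (-0.93). Of 74 mitochondrial ribosomal proteins 1 rose, Mrps24 (1.02 ± 0.07), and 1 fell, Mrps6 (-1.25 ± 0.07). Of 48 proteasome subunits, the immunoproteasome subunit Psmb10 alone rose (1.05 ± 0.07; 0.95 without e12.5 replicate 2). The 59 translation factors changed by -0.99 to 0.77, the 23 cytochrome c oxidase and bc1 subunits by -0.37 to 0.88 and the 14 ATP synthase subunits by -0.16 to 0.54, all short of 2-fold. Without e16.5 replicate 1, 2 translation factors passed as lower (1 with median centring), and 1 cytochrome c oxidase or bc1 subunit passed as higher without e16.5 replicate 2 or with cyclic loess. Complex I had 1 riser of 31, Ndufa6 (1.07 ± 0.11), which was 0.86 without e12.5 replicate 1; the count was 2 with cyclic loess and 0 with probe sets averaged. In glycolysis Pdk1, which holds pyruvate back from mitochondria, rose (1.42 ± 0.08), alone of 21; 2 rose without e12.5 replicate 1, without e16.5 replicate 1, and with repeated quantile normalization or cyclic loess. The endothelial list moved little, with Vwf (-1.01 ± 0.08, under 2-fold with each of the 3 other scalings and at -0.96 and -0.92 without e12.5 replicate 1 or e16.5 replicate 2) alone called of 23, and Pecam1, Kdr, Cdh5 and Tek between -0.38 and -0.03.

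Of 31 leukocyte genes 4 rose and none fell; 1 rose by a line over the 5 pool means and 2 among the brighter probe sets. S100a8, a calcium-binding protein of neutrophils, read 6.47 and 6.48 at e12.5 and 8.69 and 8.71 at e16.5. Its partner S100a9 read 4.99 and 5.03 at e12.5 and 7.45 and 7.26 at e16.5. At e15.5 their means were 5.86 and 4.57, below those of e12.5, so the whole rise lies in the last step. Lyz2, lysozyme of myeloid cells, read 4.46 and 4.59 at e12.5 and 5.91 and 5.91 at e16.5, with a mean of 4.72 at e15.5. Ngp, neutrophil granule protein, changed by 0.98 ± 0.07 and was not called. The general leukocyte gene Ptprc was dim at both stages and changed by 0.06, and the macrophage gene Csf1r changed by -0.48. C1qa of macrophages (1.71 ± 0.06) was the fourth that rose. The log2 sum over the 6 leukocyte markers measured was 8.26 and 8.30 at e12.5 and 9.65 and 9.62 at e16.5; the part of blood cells in other results was not tested.

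Xist, the RNA that coats the inactive X chromosome in female cells, was called lower. It read 7.25 and 7.45 at e12.5 and 6.05 and 6.07 at e16.5 on chip A, a change of -1.29 ± 0.07, with means of 5.74, 5.69 and 5.61 at the stages between. The e12.5 pool was thus above all 4 later pools. The Y-linked gene Eif2s3y had means of 4.24 at e12.5 and 4.71 at e16.5, with 5.17, 4.88 and 4.72 at the stages between. Its e12.5 pool was thus below all 4 later pools. Of the 2 other Y-linked genes looked up, Kdm5d changed by -0.36, -0.10 and 0.16 on its 3 probe sets and Uty by -0.04. The values of these Y-linked genes at e12.5 and e16.5 were all dim. The labels do not give the sexes in a pool, and their part in other genes was not tested.

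Marker genes of neighbouring organs were mostly not called. Of 5 stomach or gut markers, 1 was above the chip median at both stages and none was called. Of 4 liver markers, Alb was called higher with all arrays dim (1.15 ± 0.08) while Afp (0.19), Ttr (-0.55) and Apoa1 (-0.02) were not called. The spleen marker measured, Nkx2-5, changed by -0.26. In the list of stomach, gut and liver genes 2 rose and 1 fell, Tff2, a trefoil peptide also found in pancreas (2.36 ± 0.09), being the larger rise and Serpina1b, an antitrypsin, the fall (-1.61 ± 0.06); among the brighter probe sets none of this list rose. The part of tissue from outside the pancreas in these values was not tested. Of 6 mesenchymal markers, 5 were above the chip median at each stage and 3 were called lower.

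The pools between the ends show when the difference arose. They enter the same fit, so the shares are a description. Over the 352 genes called higher, the median share of the final change reached was 11.8% at e13.5, 28.6% at e14.5 and 73.1% at e15.5. Over the 678 called lower it was 22.6%, 42.3% and 65.1%. For 196 risers the largest daily step was the one from e14.5 to e15.5, and for 106 it was the last. For 328 fallers it was the last step, and for 161 the first. In 223 of the risers and 515 of the fallers all 4 steps went the same way.

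**Figure D4:**
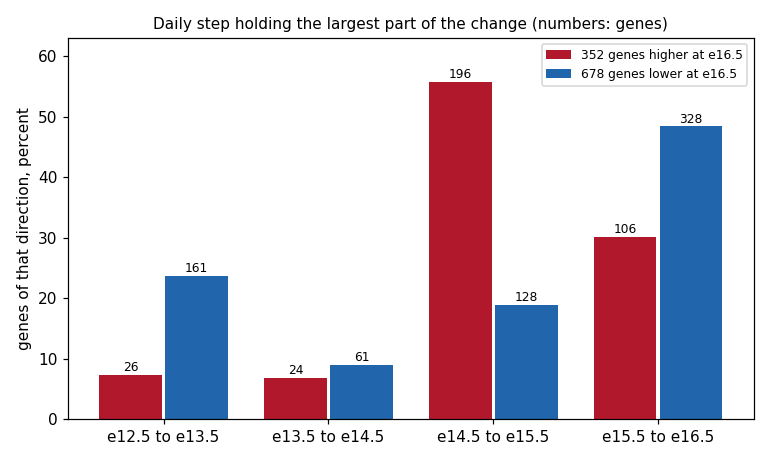
Percent of the 352 genes called higher (red) and the 678 called lower (blue) whose largest daily step of pool means fell in each interval; numbers over the bars count genes. Risers cluster in the step from e14.5 to e15.5 (196 genes) and fallers in the last step (328 genes).

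Acinar genes differed in their timing. Ctrb1 had covered 48.2% of its rise at e13.5 and 97.7% at e15.5, whereas Prss2 had covered 43.1% at e14.5 and 55.7% at e15.5. Ctrb1 averaged 14.20 at e16.5, where the 99th percentile of chip A was 10.87 on replicate 1, and Prss2 started from dim values. Whether a ceiling or a floor of the signal shaped these shares was not tested. Zg16, a lectin of the zymogen granule, read 5.06 and 4.99 at e12.5 and 9.35 and 9.43 at e16.5 and had covered 11.5% at e15.5. A line over the 5 pool means did not pass for Zg16 (limma adjusted p = 0.0644), nor for the caldecrin gene Ctrc (2.89 ± 0.11, 8.8% at e15.5) or the mucosal scavenger protein Dmbt1 (2.18 ± 0.15, 4.65%). In all, 17 genes called higher and 14 called lower had no passing line. Of the risers 20 had covered under 25% by e15.5, among them also the granule glycoprotein Gp2, the lipase relative Pnliprp2 and the kallikreins Klk1b1, Klk1b5 and Klk1b22 (named after their values were seen). Ins2 was earlier, with 77.5% at e14.5 and 93.4% at e15.5.

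Among the fallers 17 had covered under 25% by e15.5. They include the replication genes Mcm7, Mcm5 and Pola1 and the mitotic genes Top2a, Anln, Cdca8, Ndc80, Ncapg and Cks2 (several named after their values were seen). Top2a, which untangles DNA, had means of 8.08, 7.93, 7.96, 7.96 and 7.05 over the 5 stages. Egfl6, a secreted EGF-repeat protein, read 7.75 and 7.92 at e12.5 and 6.53 and 6.48 at e16.5 and was higher at e15.5 (8.08) than at e12.5. Bex1 read 7.97 and 8.03 at e12.5 and 6.89 and 6.59 at e16.5 with 7.92 at e15.5. In the other direction of timing, 4 risers and 7 fallers had covered over 60% by e13.5, among them Spint1, an inhibitor of epithelial proteases, with 7.57 at e13.5 and 7.44 at e16.5, and Nnat, with 9.07 and 8.79.

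**Figure D5:**
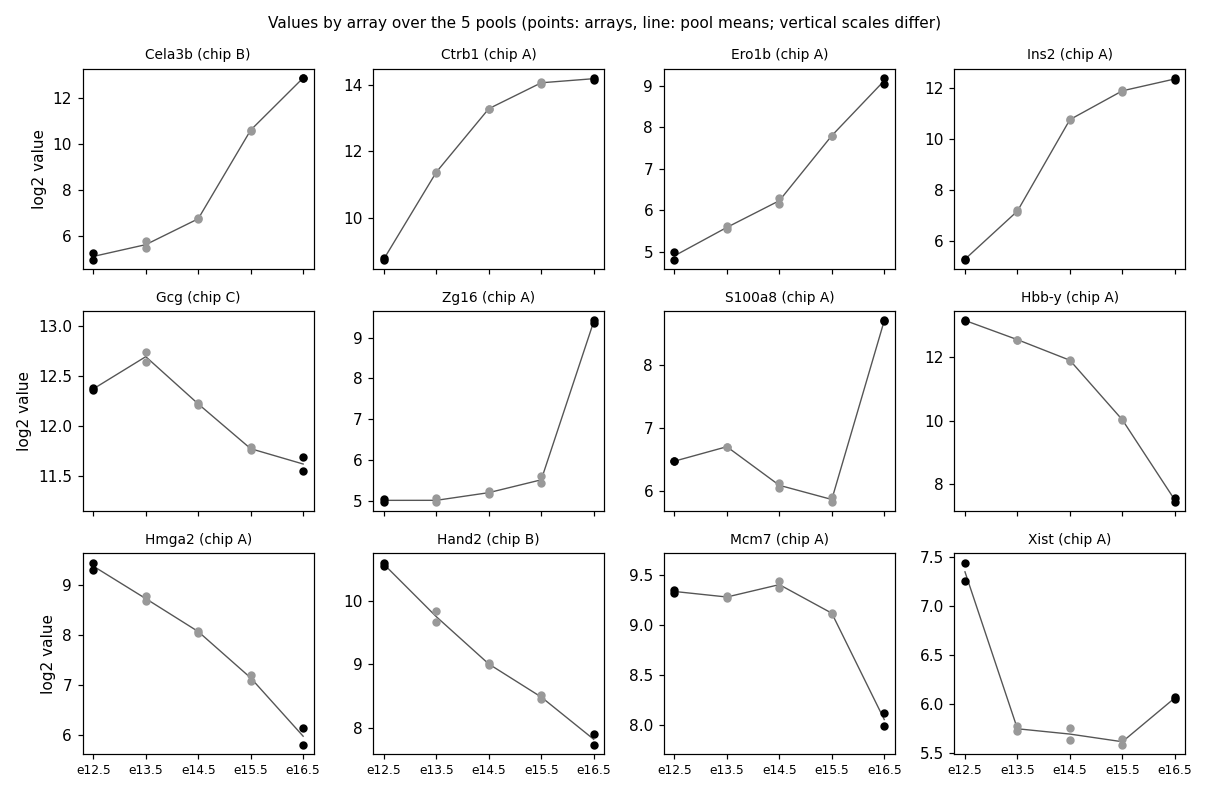
Log2 values of 12 genes on each array over the 5 stages; black points are the e12.5 and e16.5 arrays compared here, grey points the stages between, and the line joins pool means (vertical scales differ). Cela3b, Ctrb1, Ero1b and Ins2 climb over several days, Zg16 and S100a8 step up at e16.5, Mcm7 steps down at e16.5, and Xist is high at e12.5 alone.

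Many genes have more than 1 probe set, which gives a second reading of the same pools. Of the 352 risers, 162 had another probe set, and in 53 another was also called higher. Of the 678 fallers, 419 had another, and in 96 another was also called lower. Where another probe set lay above the chip median on all 4 arrays, it was called the same way in 21 of 60 risers and 57 of 238 fallers, and all such probe sets had the same sign of change in 56 of the 60 and 162 of the 238. Xiap, an inhibitor of caspases, and Zfp207, a mitotic zinc finger protein, had probe sets called in opposite directions. Those of Xiap changed by -1.27 on chip B and 1.16 on chip A, and those of Zfp207 by 1.46 and -1.47 on chip B. A call for a gene named here is therefore a call for its probe set of highest mean.

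Large rises were also found among probe sets without a single symbol. Of 7570 such probe sets, 53 were higher and 100 lower, both smaller shares than the 1.44% and 3.03% over all 36701 probe sets. A pair of chip A probe sets that carry several symbols each went from 3.63 to 12.99 and from 3.39 to 12.74, with both e12.5 means dim, so that their folds are poorly measured. Which gene they read cannot be told from the annotation, so they are left unnamed.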

How the data were processed

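Each chip has 1 table of deposited values on a log2 scale, which the authors computed by RMA, per the submitters' processing notes; the log base was inferred from their range, and the sources used here give no software version. RMA corrects background, equalises the distributions of arrays and summarises probes, so a change in total RNA per cell is not seen. Each chip was treated as normalized on its own, and levels were not tested between chips.

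Gene symbols come from the platform annotation held by GEO, in which 29131 of 36701 had 1 symbol, 724 several and 6846 none. Coordinates and promoters are from RefSeq (GRCm38.p6). For each gene the probe set of highest mean over the 10 arrays was used, a choice across chips in which the chip can matter; 7645 of 15964 genes had over 1.

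With limma 3.58.1 in R 4.3.3, stage was fitted as a factor to the 10 arrays of each chip, and e16.5 minus e12.5 was tested with Benjamini-Hochberg adjustment over the 3 chips, called at an adjusted p under 0.05 and 2-fold. The test measures the spread between labelling reactions only, and the number of arrays limits the precision. The fit was tested on simulated data. The genes named are the 12 largest rises and falls, the 12 largest among genes above the chip median, up to 4 members of each list, the 5 largest calls each way with no passing line, genes with opposed probe sets and cell type markers; every other gene was named after its values were seen. The members, lists and motifs were chosen with earlier results of these data known. Alternatives were other scalings, a brightness filter, other fits and fold minimums, leaving out each array, and the replicate number as a block. No end-stage array was left out.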

Additional observations from a re-analysis of the deposited data

How the results depend on the processing

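The counts of 527 probe sets higher and 1111 lower were unchanged with the 4 end arrays alone, with an intensity trend, with adjustment within each chip and with the replicate block. They were 580 and 954 with quantile normalization repeated, 532 and 1125 with medians centred, 585 and 997 with cyclic loess, 405 and 931 among the brighter 18350 probe sets, 525 and 981 for a line and 544 and 999 for a quadratic over the 5 pool means, and 525 to 545 and 1090 to 1183 without each array in turn. The fold minimum moved them far more, to 9687 and 8594 with none, 1598 and 3303 at 1.5-fold, 146 and 69 at 4-fold and 329 and 434 when the change itself was tested against 2-fold. Same-numbered reactions of both stages deviated with correlations of -0.08, 0.09 and -0.01 on chips A, B and C, so the numbers do not pair the arrays, and the replicate block changed no call. Of 157 named genes called, 61 were called the same way under every alternative that holds them, the 4-fold minimum included, and none changed direction. Markers that were not called did: Apoa1 was 0.0092 after quantile normalization and 0.0030 after median centring, Col3a1 0.053 after cyclic loess, and after quantile normalization and cyclic loess Pecam1 was 0.049 and 0.047 and Ptprc -0.021 and -0.022. Without each array, Apoa1 ranged over -0.063 to 0.023, Irx2 over -0.28 to 0.084, Muc5ac over -0.013 to 0.30, Pecam1 over -0.098 to 0.037 and Ptprc over -0.065 to 0.18. Signal over background is unknown without detection calls.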
